A study of Mus musculus with 7 samples.

Results

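The 9 genes described here, C1qa, C1qb, C1qc, Mrc1, Adgre1, Cd163, Spic, Axl and Mertk, are markers of the macrophages that live in bone marrow. They were listed by symbol, and all 9 were found among the 49315 genes of the count table and passed the filter on low counts that left 17920 genes to test. The RNA was poly(A)-selected and came from marrow of mice on chow that had undergone hindlimb ischemia, in which blood flow to a hind leg is cut off surgically. Flox stands for miR-181a2b2flox/flox, in which the microRNA cluster is flanked by recombination sites (3 libraries), and KO for miR-181a2b2-/- (4 libraries). Diet and ischemia were shared by both groups, so no sham-operated or untreated marrow enters the comparison, and the labels name no Cre driver, strain, sex or age. Nothing in the labels says that libraries of a group are separate animals, so each p-value measures the spread between these libraries only, which may be technical.

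Resident marrow macrophages sit at the centre of erythroblastic islands, where they hold maturing red cell precursors, engulf the nuclei these expel, take up aged cells and return heme iron to the marrow. Complement C1q, which they secrete, starts the classical complement pathway and also tags dying cells for uptake. Axl and Mertk are receptor tyrosine kinases that bind dying cells through the bridging proteins Gas6 and protein S, and Spic is the transcription factor that heme induces in iron-recycling macrophages.

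The deleted cluster encodes the microRNAs miR-181a and miR-181b. Their mature sequences are shown because they set what the KO lacks from this locus, though Mir181a-1 and Mir181b-1 on chromosome 1, which the labels do not name as deleted, encode the same mature sequences. Capitals mark the seed, bases 2 to 8, which is the same in both (RefSeq, GRCm38.p6, plus strand, chr2:38852741-38852763 and chr2:38853845-38853868).
miR-181a-5p: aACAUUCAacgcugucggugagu
miR-181b-5p: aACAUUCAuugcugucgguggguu

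The match to this seed, TGAATGT on the message strand, was searched in the longest annotated 3' untranslated region of each member. It was found in 2 of the 9, Cd163 (once, at base 148 of 954) and Mertk (once, at base 897 of 1227). Among 14275 tested genes with such a region, 17.8% held the match, and their median region was 1129 bases long, longer than that of 7 of the 9 members. The 30 bases around each match are printed with the match in capitals.
Cd163: aaccatatttgTGAATGTgaccacttaata
Mertk: tagcacaacttTGAATGTgatagcacacac
In both, the base after the match is not the A that would extend it to 8 bases. C1qa, C1qb, C1qc, Adgre1 and Axl held not even the last 6 bases of the match. Mrc1 held 1 match of those 6 bases followed by A, which is another type of 7-base site. Spic held 2 without that A. The 17.8% counts only genes that hold TGAATGT. A match is a stretch of letters and says nothing by itself about binding.

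Total counts ran from 43110251 to 51688514 per library. The smallest member count was 459, for Spic in flox 2, with an exact 95% Poisson interval of 418 to 503 that covers counting error only, and the largest was 10400, for Axl in flox 1. Levels are given as CPM, the usual library-scaled count, on library sizes adjusted by the TMM method. Marrow genes were abundant in each library, with the beta globin gene Hbb-bs at 15247 to 32058 CPM and the neutrophil peroxidase gene Mpo at 1485 to 3515 CPM. The labels' extraction text speaks of white adipose tissue, and the fat cell gene Adipoq stood at 4.22 to 19.7 CPM, highest in flox 1. Adipoq is also 1 of the 10 marrow stromal markers used below, of which 8 were highest in flox 1. Flox 1 stood apart in its lineage make-up: 10 B lineage markers summed to 74.2 CPM there, whereas the sums were 443 CPM in flox 2, 719 CPM in flox 3 and 765 to 958 CPM among KO libraries. Values without flox 1 or flox 2 are given below for results that they moved.

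None of the 9 genes differed between KO and flox beyond the spread of the libraries. By edgeR's quasi-likelihood test, 0 of 9 passed an adjusted p of 0.05, where 0.145% of all tested genes passed. At an unadjusted p under 0.05 the count was also 0 of 9, against 14.1% of tested genes, and DESeq2 and limma-voom called 0 of 9 as well, against 2.15% and 0.0725%. The group ranges overlapped for all 9, while 13.6% of tested genes had ranges that did not overlap. The median log2 fold change of KO over flox was -0.024 for the 9 genes and -0.0080 for all tested genes, with 8 of 9 and 9295 of 17920 below 0.

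**Figure D1:**
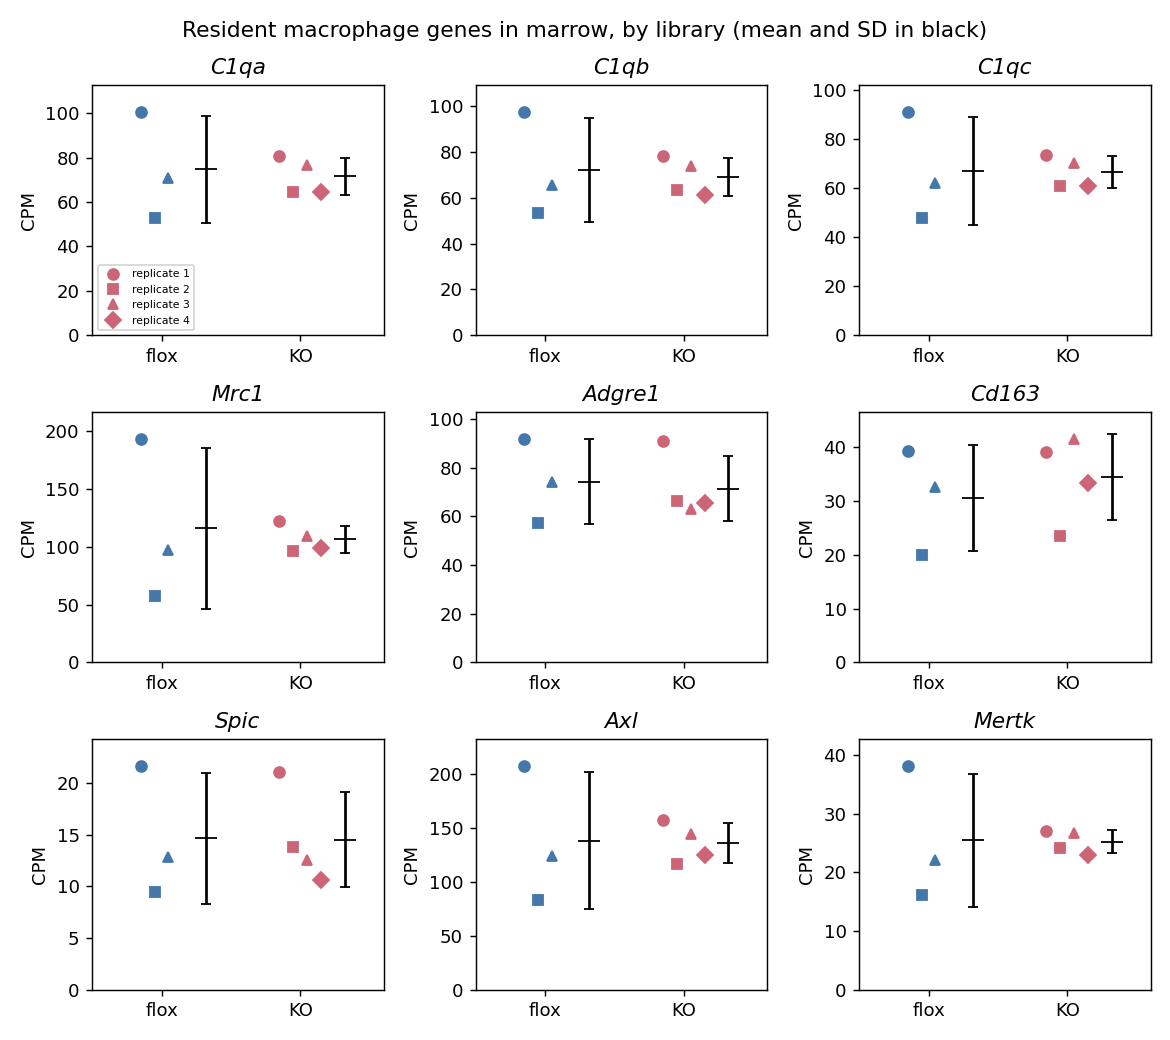
CPM of each of the 9 genes in each library, with flox in blue and KO in red; symbols give the replicate number, and the black bar is the group mean with its SD (n = 3 flox, n = 4 KO). The group means nearly coincide for each gene, and flox 1 (circle) and flox 2 (square) lie at the 2 ends of the flox values.

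The C1q subunits had the highest levels per transcript length. C1qa, C1qb and C1qc encode the A, B and C chains of C1q and lie side by side on the minus strand of chromosome 4 (GRCm38), with C1qb at 136880129 to 136886187, C1qc at 136889804 to 136893065 and C1qa at 136895917 to 136898803. The gaps between them are 3616 and 2851 bases. C1qa stood at 101, 52.7 and 70.9 CPM in flox 1, 2 and 3 and at 80.8, 64.6, 76.6 and 64.5 CPM in KO 1 to KO 4. The KO values lie inside the flox range. Its flox mean was 74.7 ± 24.2 CPM (SD, n = 3) and its KO mean 71.6 ± 8.35 CPM (SD, n = 4). KO over flox was -0.062 on the log2 scale (SE 0.20, 95% interval -0.53 to 0.41, edgeR adjusted p = 0.936).

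C1qb stood at 97.5, 53.2 and 65.5 CPM in flox and at 78.4, 63.2, 73.9 and 61.2 CPM in KO. C1qc stood at 91.3, 47.8 and 62.4 CPM in flox and at 73.6, 61.0, 70.6 and 60.9 CPM in KO. Both repeat the order of C1qa at the ends of the scale, with flox 1 highest, flox 2 lowest and all 4 KO libraries between them. The log2 fold changes were -0.060 for C1qb (95% interval -0.51 to 0.40) and -0.014 for C1qc (-0.48 to 0.45). On the linear scale these intervals run from 0.691 to 1.36 times the flox level over the 3 genes, so changes larger than that lie outside them.

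The ratio of the C1q chains to each other hardly moved. Counts of C1qa over C1qb ran from 0.990 in flox 2 to 1.08 in flox 3, and C1qa over C1qc from 1.06 in KO 2 and KO 4 to 1.14 in flox 3, although the level of C1qa itself varied 1.91-fold over the 7 libraries. In KO the mean ratio of C1qa to C1qb was 1.036 ± 0.0136 (SD, n = 4) and in flox 1.035 ± 0.0458 (SD, n = 3). The assembled protein uses the 3 chains in equal numbers.

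The sequence before the start of a gene can hold binding sites shared by genes that vary together. Such sequence from RefSeq was at hand for 7 of the 9 genes. It was lacking for C1qa and Adgre1, which were therefore not searched. The 250 bases before each start were searched on both strands for the PU-box GAGGAAGT, the MAF half-site TGCTGA and the E-box CACGTG. PU.1 and its relative SPIC can bind the PU-box. A gene was counted if any of its promoters held the motif, while the shares count each promoter singly. The PU-box was found before 1 of 7, C1qc, where 2.44% of 32851 promoters hold it. The half-site was found before C1qb and Spic (16.1% of all promoters) and the E-box before none of the 7 (6.02%). Windows of 30 bases from the C1q cluster are shown with the motif in capitals, as read on the minus strand that the genes use; the C1qc match is the reverse complement of the letters given (GRCm38.p6, chr4:136893091-136893120 and chr4:136886313-136886342).
C1qc: ggacggcagacACTTCCTCattttggcaca
C1qb: ccatccacaggTGCTGAgttggcgaaacca
These are matches of letters, and binding was not measured.

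Among the scavenger and surface receptors, Mrc1 spread most. Mrc1 (ENSMUSG00000026712, chromosome 2, 14229392 to 14332057) encodes the mannose receptor CD206, which takes up glycoproteins and is also made by sinusoidal endothelium. It stood at 193, 57.4 and 97.4 CPM in flox and at 122, 96.0, 109 and 99.1 CPM in KO. Flox 1 held 3.36 times the level of flox 2, while the KO libraries spanned only 1.27-fold. The means were 116 ± 69.7 CPM (SD, n = 3) and 106 ± 11.7 CPM (SD, n = 4), with a log2 fold change of -0.12 (SE 0.39, 95% interval -1.07 to 0.83, edgeR adjusted p = 0.933), the only interval of the 9 that reached beyond 1 log2 unit. Mir511, a microRNA gene inside an intron of Mrc1, had 0 counts in all 7 libraries; mature microRNAs lack the poly(A) tail used to select these RNAs.

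Cd163 (chromosome 6, 124304656 to 124330527) encodes the receptor that clears haemoglobin bound to haptoglobin. It stood at 39.2, 19.9 and 32.5 CPM in flox and at 39.1, 23.5, 41.4 and 33.3 CPM in KO. It was the 1 member whose highest library was not flox 1 but KO 3, and the 1 member with a fold change above 0, at 0.17 (SE 0.27, 95% interval -0.46 to 0.80, edgeR adjusted p = 0.847). Flox 2 was again the lowest, and the groups overlap over nearly their whole range. Cd163 also carries a miR-181 seed match, printed above.

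Adgre1 (chromosome 17, 57358691 to 57483527) encodes F4/80, the adhesion receptor by which mouse macrophages are stained. It stood at 91.8, 57.2 and 74.0 CPM in flox and at 91.1, 66.2, 63.1 and 65.3 CPM in KO. KO 1 lay well above the other 3 KO libraries and level with flox 1. KO differed from flox by -0.057 on the log2 scale (SE 0.18, 95% interval -0.47 to 0.36, edgeR adjusted p = 0.933).

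Spic (chromosome 10, 88674772 to 88685015) encodes the factor named above. It stood at 21.6, 9.41 and 12.8 CPM in flox and at 21.1, 13.8, 12.5 and 10.6 CPM in KO. Flox 1 and KO 1 were high, and the other 5 libraries lay between 9.41 and 13.8. The means were 14.6 ± 6.31 CPM (SD, n = 3) and 14.5 ± 4.58 CPM (SD, n = 4), with a log2 fold change of -0.011 (SE 0.33, 95% interval -0.78 to 0.76, edgeR adjusted p = 0.994).

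The receptors for dying cells came next. Axl (chromosome 7, 25757273 to 25788705), which stromal and endothelial cells also express, stood at 207, 83.1 and 124 CPM in flox and at 158, 117, 144 and 125 CPM in KO. Mertk (chromosome 2, 128698956 to 128802894), the receptor most tied to engulfment by resident macrophages, stood at 38.1, 16.2 and 22.2 CPM in flox and at 27.0, 24.2, 26.8 and 22.9 CPM in KO. In both genes the KO libraries lay within the flox range and were close together, spanning 1.35-fold for Axl and 1.18-fold for Mertk, against 2.49-fold and 2.35-fold in flox. The log2 fold changes were -0.024 for Axl (SE 0.30, 95% interval -0.73 to 0.68) and -0.015 for Mertk (SE 0.26, -0.63 to 0.60). Axl counts were 4.82 to 5.84 times those of Mertk in every library. Of the 2 genes that hold TGAATGT, Cd163 had the highest fold change of the 9 and Mertk lay near 0. The Cd163 interval included 0, and its value was -0.046 without flox 2. Whether a seed match goes with a change was not tested.

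**Figure D2:**
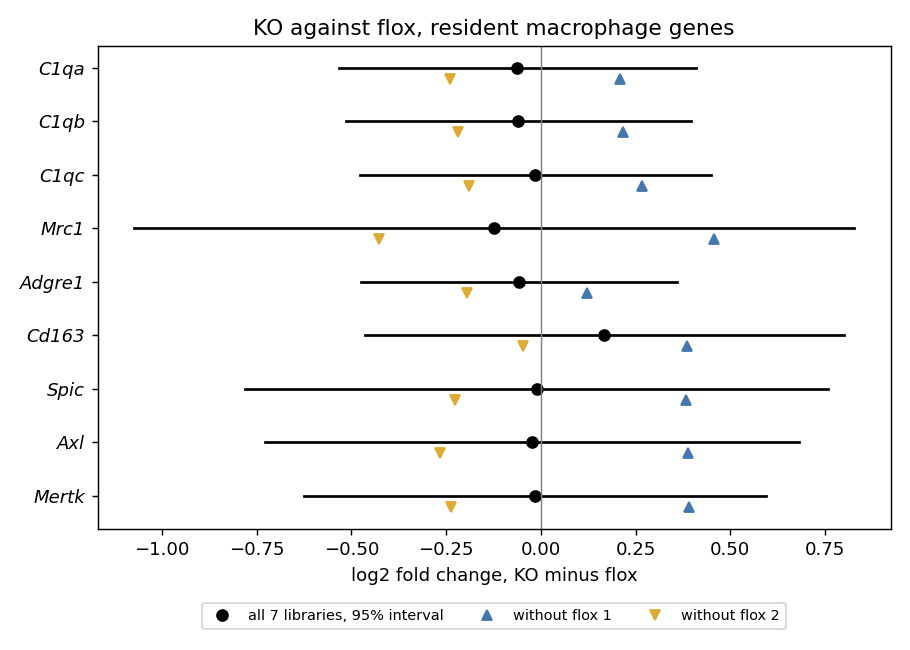
Log2 fold change of KO over flox for the 9 genes (x axis), with the edgeR estimate from all 7 libraries and its 95% interval in black, and the estimate without flox 1 (blue) or without flox 2 (yellow). All 9 intervals include 0, and each gene sits above 0 without flox 1 and below 0 without flox 2.

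The direction of these fold changes rested on 2 flox libraries. Without flox 1 all 9 were above 0, from 0.12 for Adgre1 to 0.46 for Mrc1, with a median of 0.38. Without flox 2 all 9 were below 0, from -0.046 for Cd163 to -0.43 for Mrc1, with a median of -0.23. In neither case did any of the 9 pass, and the smallest edgeR adjusted p was 0.322, for Mertk without flox 1.

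Levels between genes were compared as CPM per kilobase of the longest coding transcript. The order was C1qa (70.1 ± 14.7 CPM per kilobase, SD over all 7 libraries), C1qb (64.7 ± 13.3), C1qc (55.5 ± 11.3), Axl (32.1 ± 9.09), Adgre1 (22.4 ± 4.25), Mrc1 (20.6 ± 7.71), Spic (8.26 ± 2.76), Cd163 (7.36 ± 1.86) and Mertk (5.89 ± 1.55). C1qa exceeded C1qb, C1qb exceeded C1qc, C1qc exceeded Axl, Axl exceeded Adgre1 and Mrc1 exceeded Spic in 7 of 7 libraries. Adgre1 and Mrc1 changed places in 2 libraries, Spic exceeded Cd163 in 4 of 7 and Cd163 exceeded Mertk in 5 of 7, so those neighbours do not differ beyond their spread. With the merged length of all annotated exons in place of the coding transcript, C1qc fell to 34.6 and Spic to 3.79 CPM per kilobase, which put Spic last. No other annotated gene shares an exonic base with any member.

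The 9 genes varied together from library to library. Flox 2 was the lowest of 7 libraries for 9 of 9, against 19.7% of tested genes, and flox 1 was the highest for 8 of 9, against 20.3%. Both held for 8 of 9, against 5.50% of tested genes. With library size alone or DESeq2 size factors in place of TMM, both held for 6 of 9 (4.69% and 4.80% of tested genes), because KO 1 then passed flox 1 for Adgre1 and Spic. Without flox 1, flox 2 stayed the lowest of 6 for 9 of 9 (25% of tested genes), with KO 1 the highest for 8 of them (5.97%). The libraries in these patterns were named from the values of the 9 genes, so the shares describe the patterns and do not test them. Levels in whole tissue cannot tell fewer macrophages from less of these RNAs in each macrophage. Summed, the 9 genes stood at 880, 397 and 562 CPM in flox and at 691, 529, 618 and 543 CPM in KO.

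The spread itself was wider in flox. The SD of log2 CPM was larger in flox than in KO for 9 of 9, against 54.1% of tested genes, and ran from 0.34 for Adgre1 to 0.88 for Mrc1 in flox and from 0.11 for Mertk to 0.42 for Spic in KO. With 3 and 4 libraries, and flox 1 and flox 2 setting both ends, this is a description of these libraries.

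**Figure D3:**
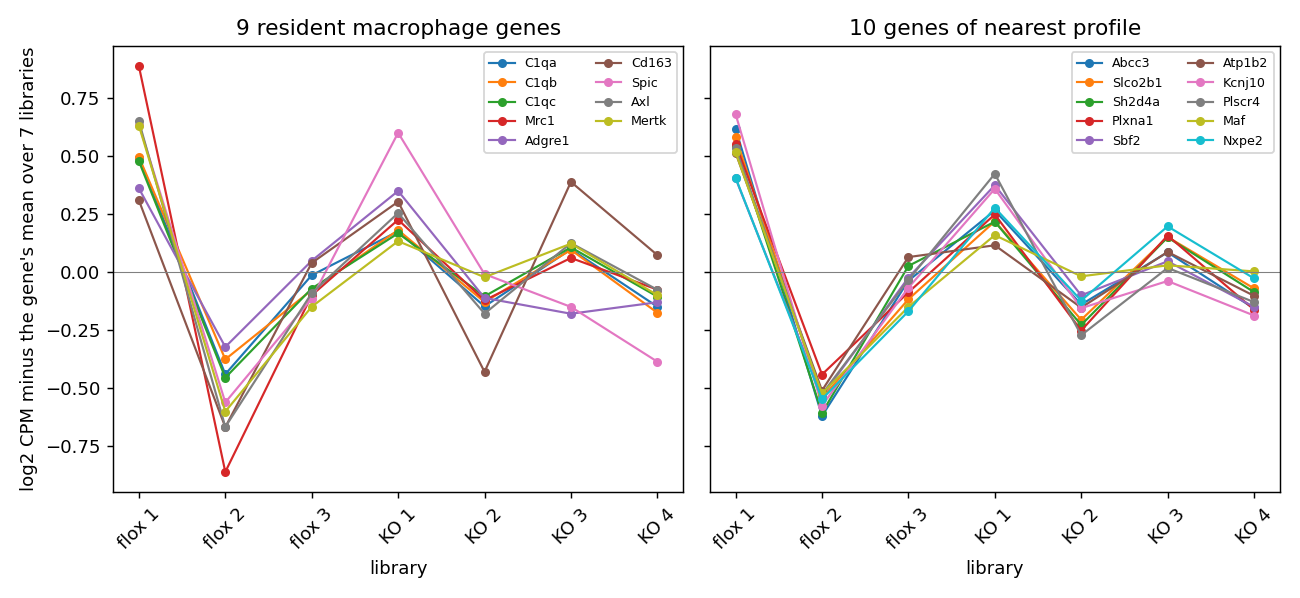
Log2 CPM of each gene minus its own mean over the 7 libraries (y axis), by library (x axis), for the 9 resident macrophage genes (left) and the 10 genes of nearest profile (right); lines only join the values of a gene. Flox 1 is high and flox 2 low in both panels, in the right one because its genes were picked by profile. Spic and Cd163 leave the common profile within KO.

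Within this shared profile some members ran closer than others. The measure used was the root mean square difference between centred log2 CPM profiles over the 7 libraries, where 0 means the same profile. C1qa and C1qc differed by 0.033, C1qa and C1qb by 0.036 and C1qb and C1qc by 0.042, followed by Axl and Mertk at 0.083. Cd163 and Spic were the farthest pair, at 0.36: Spic was high in KO 1 and low in KO 4, and Cd163 high in KO 3 and low in KO 2. From the members' mean profile, C1qc differed by 0.062 and Cd163 by 0.21, where the median of all tested genes was 0.38. Each member is part of that mean, so some of its nearness is built in.

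Outside the 9, the genes nearest to that mean profile were Abcc3 (0.040), Slco2b1 (0.054), Sh2d4a (0.063), Plxna1 (0.070), Sbf2 (0.073), Atp1b2 (0.077), Kcnj10 (0.079), Plscr4 (0.082), Maf (0.088) and Nxpe2 (0.090). Abcc3 and Slco2b1 encode membrane transporters of organic anions, Plxna1 a semaphorin receptor, Kcnj10 a potassium channel, Atp1b2 a subunit of the sodium pump and Maf a transcription factor of macrophages. Abcc3 stood at 20.6, 8.69 and 13.03 CPM in flox and at 16.1, 12.1, 14.2 and 11.995 CPM in KO, the order seen for C1qa at both ends. Maf stood at 49.8, 24.2 and 31.3 CPM in flox and at 38.8, 34.3, 35.5 and 34.8 CPM in KO. The edgeR adjusted p of these 10 genes for KO against flox ran from 0.841 to 0.987. They were picked for likeness to the members' profile over the same libraries, so this order and these p-values follow from the picking.

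Other genes of resident and island macrophages were mixed. Of 22 listed, 22 were tested, 17 lay below 0 and 5 above it in log2 fold change (median -0.15), and 0 passed by edgeR while 4 of 22 had an unadjusted p under 0.05, beside 14.1% of all tested genes. DESeq2 called 2 of them, Gpnmb and Stab1, both lower (2.15% of all genes it tested), and limma-voom 0. The median was -0.054 without flox 1 and -0.24 without flox 2. Flox 1 was the highest library for 15 of the 22 and flox 2 the lowest for 10. Stab1, a scavenger receptor shared with sinusoidal endothelium, had a flox mean of 17.4 ± 7.03 CPM (SD, n = 3) and a KO mean of 9.73 ± 1.37 CPM (SD, n = 4) (log2 fold change -0.84, SE 0.24, edgeR adjusted p = 0.231), and -0.47 without flox 1. Gpnmb, a glycoprotein of lysosome-rich macrophages and osteoclasts, gave -0.88 (SE 0.28, edgeR adjusted p = 0.261). Trem2, a lipid-sensing receptor, gave -0.41 and Cd14, a coreceptor for endotoxin, 0.27 (edgeR adjusted p = 0.262 and 0.274).

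Vcam1, Siglec1 and Cd5l, chosen after their values were seen, are among the 10 of these 22 genes that were lowest in flox 2; the other 12 had their lowest value elsewhere. Siglec1, which encodes the sialic acid receptor CD169, stood at 52.8, 17.9 and 28.9 CPM in flox and at 45.7, 24.2, 35.1 and 32.1 CPM in KO, with a log2 fold change of 0.045 (SE 0.39), which was 0.55 without flox 1 and -0.23 without flox 2. Vcam1, the adhesion molecule by which island macrophages hold erythroblasts, stood at 442, 212 and 257 CPM in flox and at 282, 268, 258 and 259 CPM in KO (-0.19, SE 0.23; 0.18 without flox 1 and -0.37 without flox 2). Cd5l, a secreted protein of tissue macrophages, gave 0.19 (SE 0.46; 0.58 without flox 1 and -0.15 without flox 2).

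Macrophage transcription factors did not pass either. Of 15 tested, 6 were higher and 9 lower, with a median of -0.087, and edgeR and DESeq2 each called 0; 3 of 15 had an unadjusted p under 0.05, beside 14.1% of all tested genes. The median was 0.00015 without flox 1, -0.043 without KO 3 and -0.0016 without KO 4. Those 3 were Id3, an inhibitor of helix-loop-helix factors (0.63, SE 0.19, edgeR adjusted p = 0.230), Spi1, which encodes PU.1 (-0.26, SE 0.091, 0.268), and Tfec (-0.48, SE 0.21, 0.352); without flox 2 Spi1 gave -0.14 and Tfec -0.22. Zeb2 gave -0.19 (SE 0.11, edgeR adjusted p = 0.481), and -0.083 without KO 3. PU.1 is also abundant in neutrophils and monocytes, whose marker sums are given below.

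Heme and iron recycling genes had no called member. Of 15 listed 14 were tested, 5 higher and 9 lower, with a median of -0.070, and edgeR and DESeq2 called 0, with 1 of 14 at an unadjusted p under 0.05 (14.1% of all tested genes). The median was 0.068 without flox 1 and -0.13 without flox 2. The 1 gene was Hp, haptoglobin, at -0.35 (SE 0.14, edgeR adjusted p = 0.320), and -0.18 without flox 2. Hp was highest in flox 2, at 1016 CPM, as was the neutrophil marker sum given below. The part of neutrophils in the Hp values was not tested. Cp, the ferroxidase ceruloplasmin, gave -0.64 (SE 0.35), and -0.11 without flox 1. Slc11a1, an endosomal iron transporter, gave -0.16 (SE 0.11; -0.043 without flox 1) and Bach1, the heme-sensing repressor, -0.087 (SE 0.064). Hmox1, the heme oxygenase, and Slc40a1, the iron exporter ferroportin, were chosen after their values were seen. Hmox1 stood at 310, 116 and 183 CPM in flox and at 228, 200, 228 and 170 CPM in KO, and Slc40a1 at 388, 210 and 269 and at 270, 265, 274 and 226 CPM. Both were highest in flox 1 and lowest in flox 2, the places these libraries took for 9 and 8 of the 14 genes. Their log2 fold changes were 0.024 (SE 0.32) and -0.16 (SE 0.19), with 0.46 and 0.11 without flox 1 and -0.24 and -0.32 without flox 2.

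Ligands and partners of the dying-cell receptors were mostly lower in KO without passing. Of 25 genes for bridging molecules, receptors and engulfment, 21 were lower and 4 higher, with a median of -0.16. EdgeR called 0 and DESeq2 1 (Stab1), and 7 of 25 had an unadjusted p under 0.05, where the shares of all genes were 2.15% for DESeq2 and 14.1% for the unadjusted p. Pros1, the protein S that bridges dying cells to Mertk, had a flox mean of 23.3 ± 3.16 CPM (SD, n = 3) and a KO mean of 16.4 ± 2.59 CPM (SD, n = 4) (log2 fold change -0.51, SE 0.14, edgeR adjusted p = 0.211). Tyro3, the third receptor of the Axl family, gave -0.69 (SE 0.23, 0.256) at a level near 1 CPM, and Itgb3, an integrin also found on platelets and osteoclasts, -0.59 (SE 0.18, 0.244), or -0.36 without flox 1. Gas6, the ligand of Axl, was chosen after its values were seen and stood at 96.0, 37.1 and 51.3 CPM in flox and at 29.3, 29.3, 44.1 and 36.2 CPM in KO. Its log2 fold change was -0.82 (SE 0.34, edgeR adjusted p = 0.348) and -0.35 without flox 1. Whether these ligands and the receptors Axl and Mertk differ in their change was not tested.

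Complement genes other than C1q had a median of -0.29, with 16 of 21 lower, but the median was -0.14 without flox 1 and -0.19 without flox 2. EdgeR called 0, DESeq2 2 (Clu and Itgam), and 7 of 21 had an unadjusted p under 0.05, against 2.15% and 14.1% of all genes for DESeq2 and the unadjusted p. Itgam, the alpha chain of complement receptor 3 and a surface marker of neutrophils and monocytes, gave -0.37 (SE 0.093, edgeR adjusted p = 0.186), Clu, an inhibitor of the terminal complex, -0.72 (SE 0.21, 0.232), C3, the central component, -0.32 (SE 0.11, 0.268) and C1rl -0.39 (SE 0.14, 0.274). Clu gave -0.44 without flox 1, and without flox 2 C3 gave -0.16 and C1rl -0.19.

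**Figure D4:**
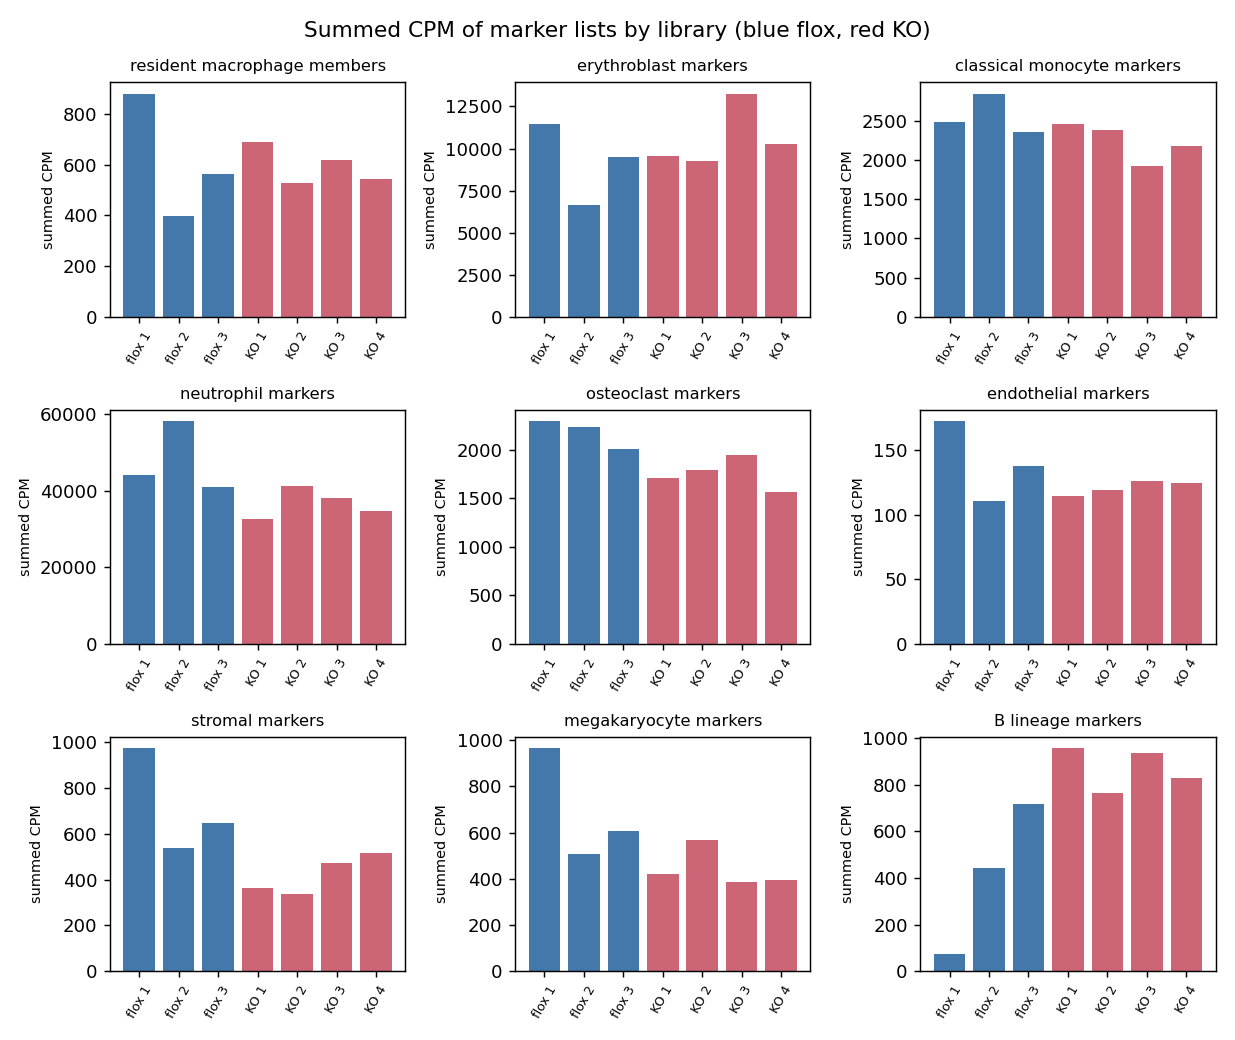
Summed CPM by library for the 9 resident macrophage genes and for 8 lists of 10 marker genes of other marrow cells, with flox in blue and KO in red. The resident macrophage sum is lowest in flox 2, as are the erythroblast and endothelial sums, whereas neutrophil and monocyte sums are highest there. The resident macrophage and endothelial sums are both highest in flox 1.

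The marker sums of other marrow cells moved with some of these values. Erythroblast markers were lowest in flox 2 for 10 of 10, at a sum of 6673 CPM there compared with 11475 CPM in flox 1, 9509 CPM in flox 3 and 9250 to 13269 CPM across KO. Neutrophil markers were the reverse, with flox 2 highest at 58337 CPM and the other 6 libraries at 32555 to 44112 CPM. The monocyte sum was also highest in flox 2, at 2845 CPM against 1927 to 2487 elsewhere, but its genes were split. Ly6c2, F13a1, Ccr2, Ms4a6c and Ly86 were highest in flox 2, Mpeg1, Csf1r, Ctss and Cx3cr1 in KO 1, and Fcgr1 in flox 1. Stromal markers summed to 974 CPM in flox 1 against 335 to 645 elsewhere, endothelial markers to 173 CPM against 111 to 138, and megakaryocyte markers to 967 CPM against 386 to 606. The endothelial sum was lowest in flox 2, at 111 CPM, so both its ends fell in the same libraries as those of the 9 genes. Of the 10 endothelial genes, 8 were highest in flox 1 but only 1 was lowest in flox 2. Osteoclast markers ran from 1559 CPM in KO 4 to 2298 CPM in flox 1. Mmp9 alone made up 1235 and 1748 CPM of these sums, so it hides the other genes of that list. Dendritic cell markers ran from 163 to 233 CPM. CPM are relative to the whole library. The part of these cells in the flox 1 and flox 2 values of the 9 genes was not tested.

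Between the groups, the medians of these lists of 10 genes were 0.17 for erythroblast, -0.13 for monocyte, -0.38 for neutrophil, -0.48 for osteoclast (9 tested), -0.64 for endothelial, -0.74 for stromal, 1.13 for B lineage, 0.12 for dendritic cell and -0.66 for megakaryocyte markers, and edgeR called 0 members of any of them. Numbers with an unadjusted p under 0.05 were 0, 1, 7, 5, 7, 7, 2, 2 and 9 in that order, and DESeq2 called 0, 0, 1, 1, 0, 2, 0, 1 and 2; the shares over all genes are the 14.1% and 2.15% given above. Without flox 1 the B lineage, stromal, megakaryocyte and endothelial medians were 0.69, -0.41, -0.41 and -0.34, the osteoclast median was -0.29 and the erythroblast median 0.36. Without flox 2 the medians were -0.18 for neutrophil, -0.0096 for erythroblast, -0.087 for monocyte and 0.20 for dendritic cell markers, and without flox 3 the B lineage median was 1.79. With a KO library left out, the monocyte median was -0.20 without KO 1 and -0.044 without KO 3, the erythroblast median 0.074 without KO 3, and the osteoclast and dendritic cell medians -0.30 and 0.073 without KO 1. Markers of macrophages in other organs were low: of 6 listed, the Kupffer cell gene Clec4f had 0 to 7 counts per library and Gata6, of peritoneal macrophages, 4 to 12, while the list summed to 9.92 to 12.6 CPM with P2ry12 and Tmem119 making up most of it. In that list edgeR called 0, DESeq2 called 1 (Car4, at under 1 CPM) and the median was -0.24, or -0.031 without flox 2 and -0.16 without KO 2.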

How the data were processed

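Per the labels' protocols, the 7 marrow libraries were poly(A)-selected. The authors deposited raw read counts per Ensembl gene. Trimmomatic 0.36, STAR 2.5.2b and featureCounts of Subread 1.5.2 with GRCm38 are named in the submitters' processing notes; for strand and multi-mapping, the settings were not found in those notes. Columns were matched by library code, groups by genotype, and 0 columns were left unmapped. Of 49315 gene IDs, 49056 matched GENCODE M21 (GRCm38). Between libraries of a group, chi-square per degree of freedom was 21.4 to 103, so all 7 were counted as samples.

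Counts were filtered with filterByExpr (minimum count 10), TMM-scaled and fitted with robust glmQLFit in edgeR 4.0.16 (R 4.3.3). The test was two-sided over all 17920 genes, adjusted by Benjamini-Hochberg and read at 0.05. SEs are those implied by the F statistic, and log2 CPM uses a prior count of 2. DESeq2 1.42.0, limma-voom (limma 3.58.1), other scalings and filters, a replicate block and left-out libraries were alternatives. On counts simulated for 17636 genes, recovery was 44% at a 1.5-fold change, 76% at a 2-fold and 92% at a 3-fold change, and 11 of 166 calls were false. Only genes with higher counts were given a change, and each gene was drawn independently with the same dispersion in both groups. Shifts shared by many genes of a library and a wider spread in flox were not simulated. These shares therefore do not measure recovery for the members.

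The members and lists were chosen with earlier results of these data known. Named genes are the members, up to 4 genes of lowest p in each list on macrophage functions (marker lists are given as sums) and the 10 of nearest profile with mean log2 CPM of at least 1; others are said to be chosen after their values were seen. Sequences are from RefSeq (GRCm38.p6) and GENCODE M21 transcripts.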

Additional observations from a re-analysis of the deposited data

Results flagged for a closer look

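Adgre1 in KO was picked out because 1 of its 4 libraries lies far from the other 3. KO 1 stood at 91.1 CPM and the others at 63.1 to 66.2 CPM, so that the gap to the nearest library took 0.891 of the KO range. Chance alone can give such a gap, and how often it does was not computed. The 9 genes examined vary together. KO 1 was also the highest KO library for 8 of the 9 genes, where 26.6% of tested genes have their highest KO value in KO 1.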

How the results depend on the processing

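EdgeR called 26 genes in all; the count was 112 with no filter on low counts, 16 with non-robust dispersion, 362 with DESeq2, 13 with limma-voom, 66 at an adjusted p under 0.1 and 2 to 14 with a library left out. Of the 9 members, 0 were called under any of these or the other alternatives. No alternative changed a call of a member, but near 0 the sign of the log2 fold change turned. It was above 0 with DESeq2 size factors for C1qc (0.0031), Spic (0.0084) and Mertk (0.0028); with library size alone for C1qc (0.011), Spic (0.019), Axl (0.0028) and Mertk (0.011); with no filter for Spic (0.0030); with at least 1 CPM in 3 libraries for C1qc (0.0045), Spic (0.0096) and Mertk (0.0045); without haemoglobin and mitochondrial genes for Spic (0.0050); with DESeq2 for C1qc (0.0032), Spic (0.0085) and Mertk (0.0031); and with limma-voom for C1qc (0.032), Mrc1 (0.047), Spic (0.028), Axl (0.067) and Mertk (0.071). The cause was not tested.

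With a library left out the values ran from -0.24 to 0.21 for C1qa, -0.22 to 0.22 for C1qb, -0.19 to 0.27 for C1qc, -0.43 to 0.46 for Mrc1, -0.20 to 0.12 for Adgre1, -0.046 to 0.39 for Cd163, -0.25 to 0.38 for Spic, -0.26 to 0.39 for Axl and -0.24 to 0.39 for Mertk.

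Replicate numbers did not pair the samples: deviations of same-numbered libraries correlated at -0.022, 0.077 and 0.023. With the number as a replicate block 4 genes were called, 0 of them members, and the log2 fold changes were 0.029 for C1qa, 0.035 for C1qb, 0.072 for C1qc, 0.079 for Mrc1, 0.16 for Spic, 0.10 for Axl and 0.12 for Mertk. With member counts of 459 or more, counting error was small beside the spread between libraries.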

Other observations

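Marco, the scavenger receptor of macrophages in splenic marginal zones and some other sites, was near 0 CPM outside flox 3 and KO 1. It was chosen here after its values were seen. It stood at 0.239, 0 and 2.65 CPM in flox 1, 2 and 3 and at 5.10, 0.0853, 0.0641 and 0.0228 CPM in KO 1 to KO 4. The 2 libraries with most Marco were flox 3 and KO 1, 1 from each group, and the log2 fold change of KO over flox was 0.47 (SE 1.97, edgeR adjusted p = 0.950). Timd4, a receptor for dying cells on some resident macrophages, was likewise chosen after its values were seen. It was also highest in flox 3 and KO 1, at 2.65 and 2.26 CPM against 0.533 to 1.51 CPM in the other 5 libraries.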
